A study of Mus musculus with 2 samples.

Results

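The genes described here are 42 that encode acid hydrolases, cathepsins, enzymes of ceramide and sphingolipid metabolism, and proteins of the lysosomal membrane, as measured in CD4 T cells from mouse spleen. They were taken by name from the table of array signals, 1 transcript cluster (a set of probes summarised to 1 value) per gene, and all 42 were found among 19938 genes with a cluster of their own. The arrays measured total RNA, 1 array for a Taf7 knockout and 1 for a Taf7 heterozygote. TAF7 belongs to TFIID, the general transcription factor that loads RNA polymerase II at promoters. The knockout sample was TAF7f/- 8EIII-cre+ (Taf7 -/-): it carried a floxed and a null allele with the Cre transgene. The heterozygous sample was TAF7 f/- without that Cre (Taf7 +/-), so both genotypes had the null allele and the Cre transgene itself was present only in the knockout. The background of both was a mix of C57/BL6 and 129. The sources used here give neither the age nor the number of the animals behind each array. In both, CD4 T cells had been sorted by strong staining for TCR beta and CD4, and low CD44 enriched them for naive cells.

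Each genotype has 1 array, so no value has a replicate error, no test between genotypes was possible, and every comparison is only as precise as 2 arrays allow. Differences are log2 values of the knockout minus the heterozygote. Genes were counted at a fixed size of 1.5-fold among those whose mean of both arrays reached a log2 signal of 7.71, the 50th percentile of all rows. Of the 42 genes, 41 lay above that filter and 1, Ctsh, below it. Taf7 itself had a log2 signal of 7.79 in the knockout and 8.34 in the heterozygote, a difference of -0.55. The sources used here do not say whether its probes cover the deleted part, so this value is not a check of the genotype. Of 12 T cell markers 10 were measured, and all 10 were above the filter on both arrays. Cd3e had log2 signals of 13.50 in the knockout and 13.49 in the heterozygote, and Cd4 of 12.77 in the knockout and 12.99 in the heterozygote. Markers that define CD4 T cells were thus present in both samples.

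Lysosomes are acidic compartments in which hydrolases break down proteins, lipids and sugar chains that reach them by endocytosis or autophagy. Ceramide is the hub of sphingolipid metabolism: it is made in the endoplasmic reticulum, turned into sphingomyelin or glucosylceramide in the Golgi, and released again when those lipids are degraded. Ceramidases split it into a fatty acid and sphingosine, from which sphingosine kinases make sphingosine 1-phosphate, the lipid that guides lymphocytes out of lymphoid organs. Cathepsins also trim antigens and activate other proteases in immune cells. The transcription factor TFEB raises many of these genes together in mammalian cells.

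As a group the genes were slightly lower in the knockout, and a few sphingolipid enzymes stood out by size. Of the 41 genes above the filter, 4 were at least 1.5-fold lower, Asah1, Ugcg, Sgms1 and Arsb, and none was at least 1.5-fold higher. That is 9.76% lower, against 3.17% of all 10457 genes above the filter, and 0.449% of those genes were at least 1.5-fold higher. Only Asah1 was at least 2-fold lower, a size reached by 0.325% of genes, while 0.0383% were at least 2-fold higher. The smallest of these differences were those of Sgms1 at -0.68 and Arsb at -0.65, and the nearest on the other side of the 1.5-fold line were Cers6 at -0.55 and Cers4 at -0.39. The median difference was -0.13, both over the 42 genes and over the 41, against -0.05 for all genes above the filter. Of the 42 genes, 33 lay below 0 and 9 above it. All 33 were above the filter, where 59.1% of all genes also lay below 0. The sign of 9 of the 42 changed under at least 1 other scaling of the arrays, all of them genes within 0.08 of 0, and the number below 0 was then between 24 and 28.

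**Figure D1:**
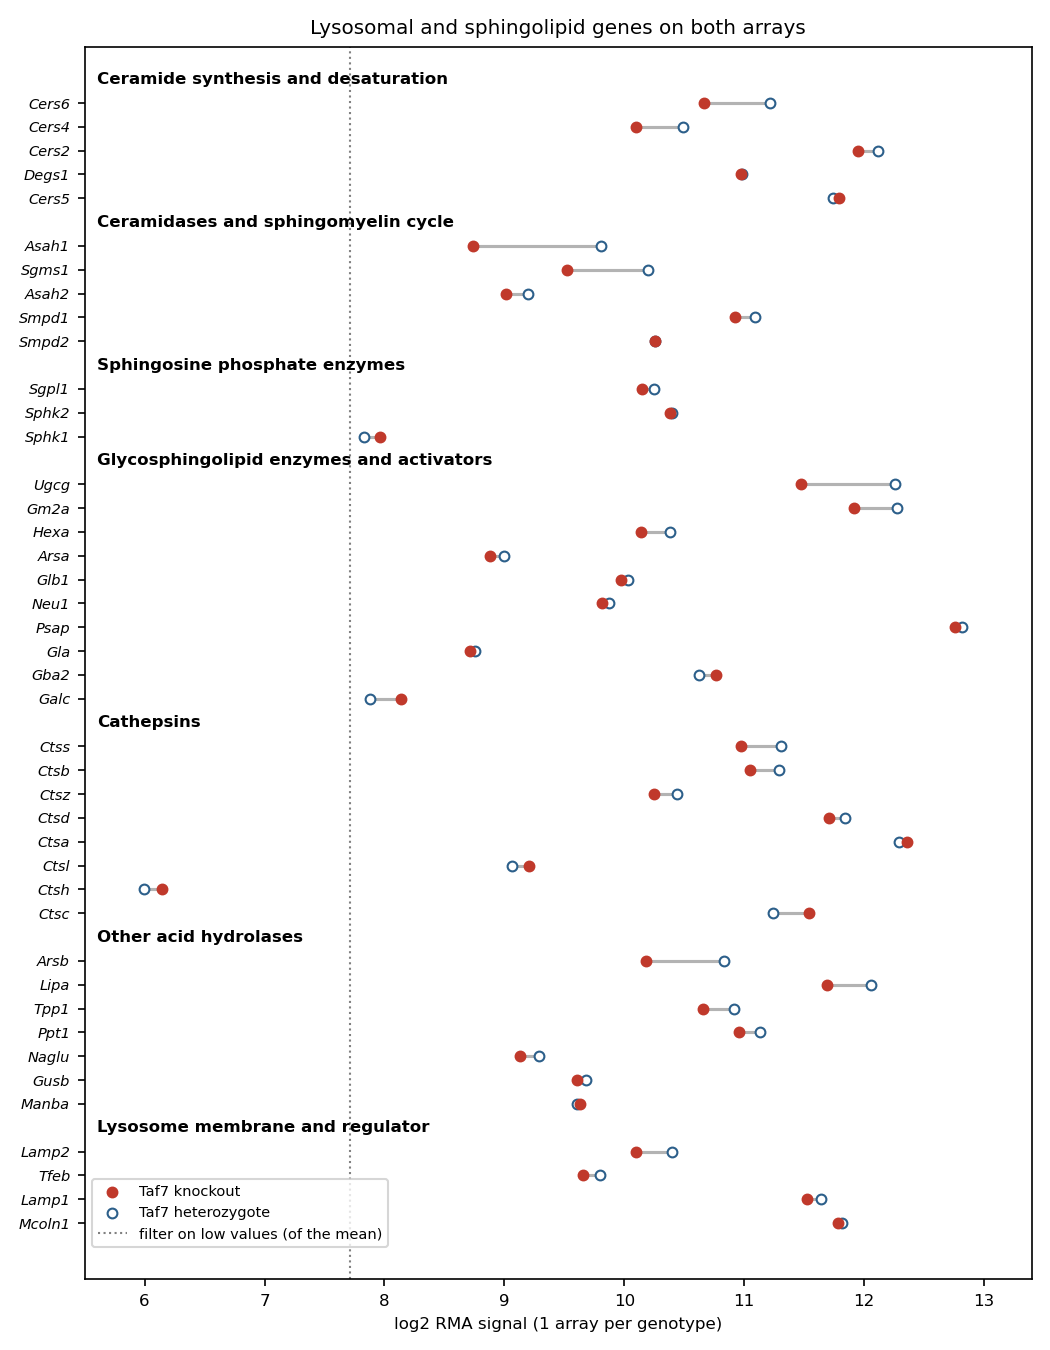
Log2 RMA signal (x axis) of the 42 genes, grouped by role, in the Taf7 knockout (filled) and the Taf7 heterozygote (open), 1 array each, with the dotted line at the filter value of 7.71. The longest gaps are those of Asah1, Ugcg, Sgms1 and Arsb, with the knockout lower, while most other pairs nearly touch; levels of different genes come from different probes and cannot be ranked.

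The differences between the arrays varied with signal, and most of these genes were well above the filter. A stricter level was the 75th percentile of the table, at a log2 signal of 9.63, which 32 of them reached. Of these 32, 3 were at least 1.5-fold lower and 28 were below 0, against 1.89% at least 1.5-fold lower and 65.2% below 0 among all 5546 genes above that level. With a loess trend on signal removed, the median of the 42 genes was -0.07. The log2 difference was then -1.01 for Asah1, -0.73 for Ugcg, -0.61 for Sgms1 and -0.58 for Arsb, the last just short of 1.5-fold.

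**Figure D2:**
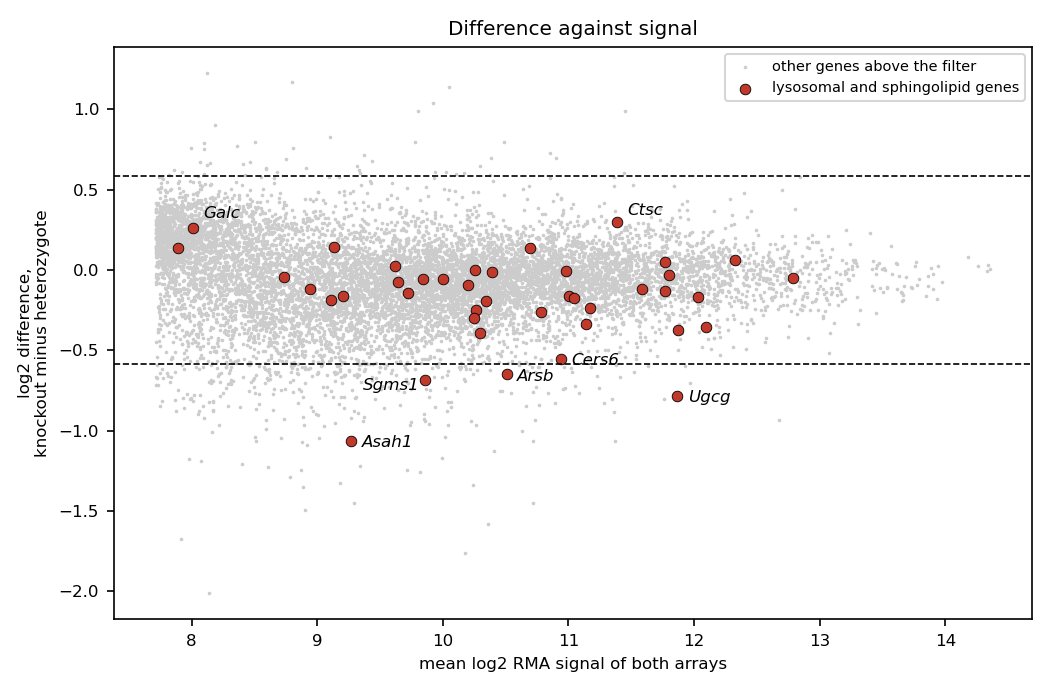
Log2 difference, knockout minus heterozygote (y axis), against the mean log2 signal of both arrays (x axis) for the genes above the filter, with the lysosomal and sphingolipid genes in red and dashed lines at 1.5-fold. Asah1, Ugcg, Sgms1 and Arsb lie below the lower line and no red point lies above the upper one.

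Ceramidases and the enzymes that interconvert ceramide and sphingomyelin included the lowest gene. Asah1, the acid ceramidase of the lysosome, had a log2 signal of 8.74 in the knockout and 9.80 in the heterozygote, a difference of -1.07 or 2.09-fold lower, at place 26 from the lowest among 10457 genes. Sgms1, the Golgi synthase that transfers phosphocholine to ceramide to form sphingomyelin, had 9.52 in the knockout and 10.20 in the heterozygote, or 1.61-fold lower, at place 186. Both Asah1 and Sgms1 were above the filter value on both arrays, so neither fold rests on a signal below it. Asah2, the neutral ceramidase, was at 9.01 in the knockout and 9.20 in the heterozygote. Its gene lies close to Sgms1 in the reference gene order, and its difference of -0.19 was within 1.5-fold. The sphingomyelinases run the opposite way and yield ceramide. Smpd1, the acid form, had log2 signals of 10.93 in the knockout and 11.09 in the heterozygote. Smpd2, a neutral form, was at 10.26 on both arrays, a difference of -0.00.

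The enzymes that make ceramide were within 1.5-fold, with a median difference of -0.17 over 5 genes. Ceramide synthases attach fatty acids of different length to the sphingoid base. Cers6, which prefers C16 acyl chains, had log2 signals of 10.66 in the knockout and 11.22 in the heterozygote, a difference of -0.55 or 1.47-fold lower. Cers4 was at 10.10 in the knockout and 10.49 in the heterozygote, 1.31-fold lower. Cers2, which prefers very long acyl chains, was at 11.95 in the knockout and 12.12 in the heterozygote. Cers5, the paralog that shares the C16 preference of Cers6, had 11.79 in the knockout and 11.74 in the heterozygote, so that these 2 paralogs differed in sign. Degs1, the desaturase that turns dihydroceramide into ceramide, was at 10.98 on both arrays.

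The genes of sphingosine 1-phosphate turnover hardly differed. Sphk1 and Sphk2 encode the kinases that make this lipid and Sgpl1 the lyase that destroys it. Sphk1 had log2 signals of 7.96 in the knockout and 7.83 in the heterozygote, both close to the filter. Sphk2 was at 10.38 in the knockout and 10.40 in the heterozygote. Sgpl1 was at 10.15 in the knockout and 10.25 in the heterozygote, and none of the 3 reached 1.5-fold. Of the 5 receptors for the lipid, 3 were above the filter. S1pr1, the receptor that lymphocytes use to leave lymphoid organs, had 12.87 in the knockout and 13.06 in the heterozygote. S1pr4 was at 12.20 in the knockout and 12.12 in the heterozygote, and S1pr2 at 9.30 in the knockout and 9.16 in the heterozygote.

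Ugcg, the synthase that adds glucose to ceramide, begins the glycosphingolipids built on glucosylceramide. The other 9 genes of this group act in the degradation of glycosphingolipids. Ugcg had a log2 signal of 11.47 in the knockout and 12.26 in the heterozygote, a difference of -0.79 or 1.72-fold lower, at place 112 from the lowest. Gm2a, the activator that presents ganglioside GM2 to hexosaminidase, was at 11.92 in the knockout and 12.27 in the heterozygote. Hexa, the alpha subunit of that hexosaminidase, was at 10.14 in the knockout and 10.38 in the heterozygote. After Ugcg these were the lowest of the group, with differences of -0.36 for Gm2a and -0.25 for Hexa, within 1.5-fold. Differences were between -0.12 and -0.05 for the sulfatase Arsa, the galactosidases Glb1 and Gla, the sialidase Neu1 and Psap, the precursor of the saposin activators. Psap had 12.76 in the knockout and 12.81 in the heterozygote. The remaining members were higher in the knockout. Galc, which removes galactose from galactosylceramide and is deficient in Krabbe disease, was at 8.14 in the knockout and 7.88 in the heterozygote. Gba2, a glucosylceramidase outside the lysosome, was at 10.77 in the knockout and 10.63 in the heterozygote. The median of the group was -0.06, next to that of all genes, and it was 0.013 with quantile normalization.

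Ordered by what they do to ceramide, 13 of the genes fall into 3 kinds, a grouping made after their values were seen. The 4 genes whose enzymes use ceramide, Asah1, Ugcg, Sgms1 and Asah2, were all lower, with a median difference of -0.73. They include the 3 lowest of the 42 genes, and these values prompted the grouping. Outside the 42, 7 more genes of the further lists encode enzymes that use ceramide, and their median was -0.03. Of these, 3 were above the filter, Cerk, the ceramide kinase, at -0.04, Samd8 at -0.03 and the ceramidase Acer2 at -0.20. Over all 11 such genes the median was -0.19. The 5 whose enzymes make it had a median of -0.17. The 4 that release it from larger lipids, Smpd1, Smpd2, Gba2 and Galc, had a median of 0.07, with differences from -0.16 to 0.26. No test was run on these kinds, and genes are not replicates of the genotypes.

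**Figure D3:**
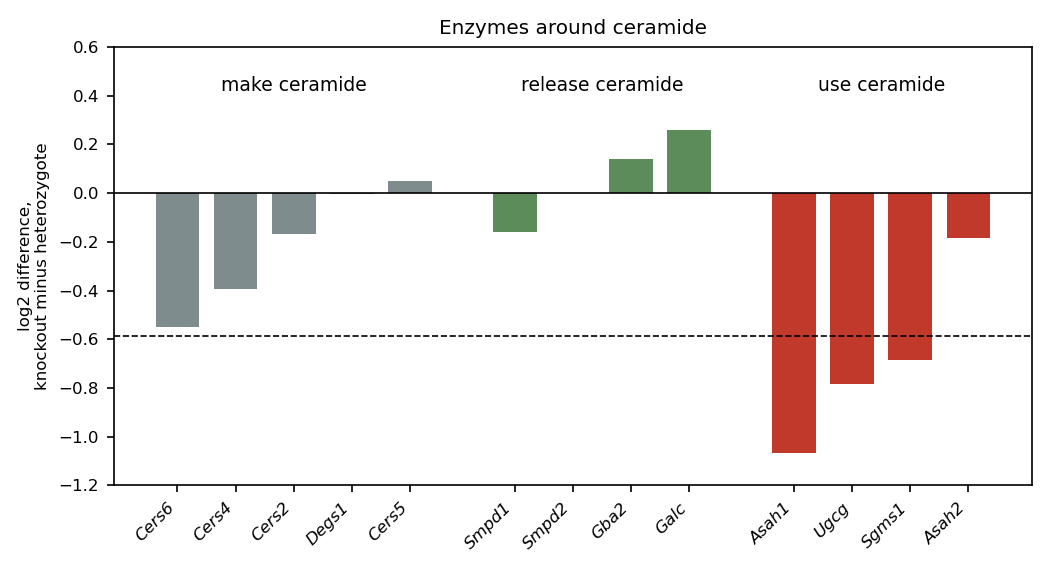
Log2 difference, knockout minus heterozygote (bars, 1 array per genotype), for enzymes that make, release or use ceramide, with the dashed line at 1.5-fold lower. Asah1, Ugcg and Sgms1 reach beyond the line at -1.07, -0.79 and -0.68, and the bars of Degs1 and Smpd2 are too short to see.

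Of the 8 cathepsins 4 were lower and 4 higher in the knockout, all 7 above the filter within 1.5-fold, with a median of -0.04 that turned to 0.012 after centring on the median of all genes. Ctss, the cysteine protease that trims the invariant chain in antigen-presenting cells, was the lowest, at 10.97 in the knockout and 11.31 in the heterozygote. Ctsb, a cysteine protease, was at 11.05 in the knockout and 11.29 in the heterozygote. Ctsz, a carboxypeptidase, was at 10.25 in the knockout and 10.44 in the heterozygote, and Ctsd, the aspartic protease, at 11.70 in the knockout and 11.84 in the heterozygote. Ctsc, which activates granule serine proteases in cytotoxic cells, was the highest of all 42 genes, at 11.54 in the knockout and 11.24 in the heterozygote, a difference of 0.30. Ctsl, a cysteine endopeptidase, had a difference of 0.14, and Ctsa, which also protects beta-galactosidase and the sialidase, one of 0.06. Ctsh, an aminopeptidase, was at 6.147 in the knockout and 5.998 in the heterozygote, below the filter on both arrays.

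Among the other acid hydrolases 6 of 7 were lower. Arsb, the sulfatase that acts on dermatan and chondroitin sulfate, had a log2 signal of 10.18 in the knockout and 10.83 in the heterozygote, 1.57-fold lower, at place 221 from the lowest. It is the only one of the 42 genes with a second cluster of its own, which was at 9.21 in the knockout and 9.91 in the heterozygote, a difference of -0.70. Both clusters of Arsb therefore lay in the same direction at a similar size. Lipa, the acid lipase that frees cholesterol from its esters, was at 11.69 in the knockout and 12.06 in the heterozygote. Tpp1, a tripeptidyl peptidase, was at 10.65 in the knockout and 10.92 in the heterozygote, and Ppt1, which removes fatty acyl groups from proteins, at 10.95 in the knockout and 11.13 in the heterozygote. Naglu, a heparan sulfate glucosaminidase, had a difference of -0.16. Gusb, the beta-glucuronidase, was at -0.08 and Manba, the beta-mannosidase, at 0.03.

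The membrane and regulator genes were all slightly lower. Lamp2, a membrane glycoprotein needed for chaperone-mediated autophagy, had log2 signals of 10.10 in the knockout and 10.40 in the heterozygote, and Lamp1 had 11.52 in the knockout and 11.64 in the heterozygote. Mcoln1, a calcium channel of the lysosomal membrane, was at 11.78 in the knockout and 11.81 in the heterozygote. Tfeb was at 9.65 in the knockout and 9.79 in the heterozygote, a difference of -0.14. The differences of these 4 genes lay between -0.30 and -0.03.

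Other genes of the same pathways were read from 7 lists that did not include the 42. These lists, too, were chosen with earlier results of these data known. Of 119 genes of these lists above the filter, 7 were at least 1.5-fold lower and none higher, or 5.88% lower against the 3.17% of all genes. Most of the 7 came from 1 list. The further lysosomal hydrolases held 4, the membrane genes 2, the vacuolar ATPase subunits 1 and the remaining lists none. The lysosomal hydrolases beyond the 42 were the lowest list, with 21 of 25 measured genes below 0. All 21 were above the filter, where 59.1% of all genes lay below 0. Of their 22 genes above the filter 4 were at least 1.5-fold lower, which is 18.2%, and the median of those 22 was -0.33. Naaa, an amidase related in sequence to the acid ceramidase, was at 8.67 in the knockout and 9.62 in the heterozygote, a difference of -0.95. Lgmn, the asparaginyl endopeptidase that activates cathepsins, was at 9.10 in the knockout and 9.96 in the heterozygote. Aga, which cleaves the link between asparagine and sugar chains, was at 8.49 in the knockout and 9.29 in the heterozygote. Smpdl3a, a phosphodiesterase related to acid sphingomyelinase, was at 11.21 in the knockout and 11.84 in the heterozygote. These 4 were above the filter value on both arrays. The highest of the 22 was Man2b1, a lysosomal mannosidase, at 0.24, and below the filter Ctsk was at 0.28.

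In the other lists few genes reached 1.5-fold, a size at which 3.17% of all genes above the filter were lower. Of 25 further lysosomal membrane genes above the filter 2 were at least 1.5-fold lower, or 8% against 3.17% of all genes. They were Mcoln3, a channel related to Mcoln1, at -0.77 and Cln3, a membrane protein mutated in Batten disease, at -0.59. Of 18 subunits of the vacuolar ATPase, the pump that acidifies lysosomes, 1 was at least 1.5-fold lower, or 5.56%. It was Atp6v0a1 at -0.72, with a knockout signal of 7.36 below the filter value. The median of those subunits was -0.01, with Atp6v0e2 at 0.39 and Tcirg1, another subunit a, at 0.30. Of 17 genes that sort hydrolases to lysosomes none reached 1.5-fold, and they lay between -0.37 for Vps26a and 0.23 for Ap3d1. Of 15 regulators above the filter, among them the TFEB relative Tfe3 and Rag GTPases that place mTORC1 on lysosomes, none did either. Below the filter, the TFEB relative Mitf was at 7.15 in the knockout and 7.82 in the heterozygote, a difference of -0.67. Tfe3 was at 9.72 in the knockout and 10.10 in the heterozygote, Rragc at -0.36 and Zkscan3, a repressor of lysosomal genes, at 0.18. Of 19 further sphingolipid genes above the filter none reached 1.5-fold. B4galt5, which makes lactosylceramide from the product of Ugcg, was the lowest at -0.48, followed by Arv1 at -0.38 and Ormdl1, an inhibitor of serine palmitoyltransferase, at -0.36. Sptlc1, a subunit of that first enzyme of sphingolipid synthesis, was at 0.08, and Cert1, the carrier that brings ceramide to the Golgi, at 0.04.

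**Figure D4:**
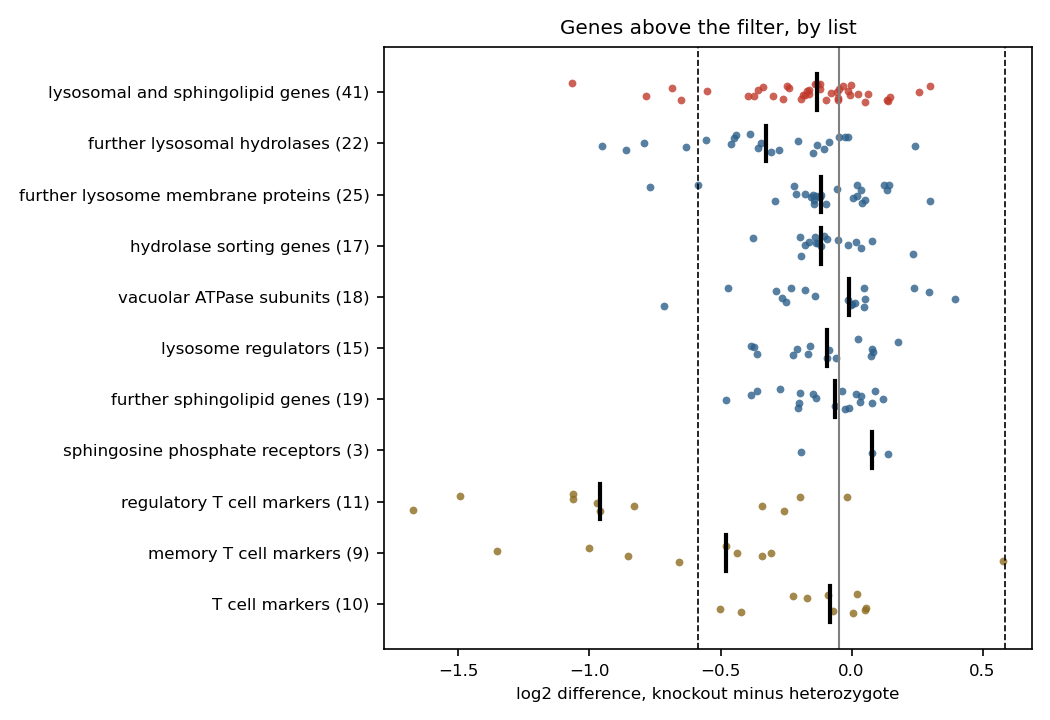
Log2 difference, knockout minus heterozygote (x axis), of each gene above the filter in the lysosomal and sphingolipid genes, in the 7 further pathway lists and in 3 lists of T cell markers, with the number of genes in brackets, black bars at the medians, a grey line at the median of all genes and dashed lines at 1.5-fold. The further hydrolases have a lower median, -0.33, than the other pathway lists, and regulatory T cell markers lie lowest at -0.96.

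Most markers of regulatory and memory T cells were also lower in the knockout. Of 12 regulatory T cell markers, 11 were lower in the knockout, all of them above the filter, where 59.1% of all genes lay below 0. Of these 11, 7 were at least 1.5-fold lower, or 63.6% against 3.17% of all genes above the filter. Foxp3, which defines these cells, was at 10.19 in the knockout and 11.25 in the heterozygote. The others at that size were Nrp1 at -1.67, Ctla4 at -1.50, Izumo1r at -1.06, Ikzf2 at -0.97, Lrrc32 at -0.96 and Il2ra at -0.83. The knockout signal of Nrp1, 7.08, was below the filter value. The summed linear signal of the 12 was 11490 in the knockout and 18819 in the heterozygote. Of 11 measured memory T cell markers 8 were lower, all of them above the filter. At least 1.5-fold lower were 4 of 9 above the filter, or 44.4% against the same 3.17%. The summed linear signal of the 11 was 8789 in the knockout and 12950 in the heterozygote. The 4 memory markers at that size were Cd44 at -1.35, Cd40lg at -1.001, Eomes at -0.85 and Icos at -0.66, and CD44 was also used to obtain the cells. The other 3 of the 11 were higher, Tbx21 at 0.58, just short of 1.5-fold, S100a6 at 0.09 and S100a4 at 0.02, the last 2 below the filter. The part of these subsets in the differences of the lysosomal and sphingolipid genes was not tested, and in these bulk samples fewer cells of a type and less RNA per cell cannot be told apart.

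Myeloid cells are rich in lysosomal hydrolases. The part of myeloid or other cell types in the differences of the lysosomal and sphingolipid genes was not tested, and their markers are given as values only. Of 17 measured myeloid markers 2 were above the filter, Cebpb at -0.25 and Cd68, itself a lysosomal membrane gene, at 0.14. The 17 had a median difference of 0.13 and a summed linear signal of 2385 in the knockout and 2336 in the heterozygote. Lyz2 was at 6.54 in the knockout and 6.49 in the heterozygote, and Csf1r at 6.85 in the knockout and 6.66 in the heterozygote, all below the filter. Itgam, an integrin of myeloid cells, had the largest difference of the list, -0.79, with 7.04 in the knockout and 7.83 in the heterozygote, and its mean was below the filter. Of 9 dendritic cell markers 1 was above the filter, with a summed signal of 1140 in the knockout and 1055 in the heterozygote. Of 11 measured B cell markers 2 were above the filter, Cd72 at -0.80 and Cd79b at -0.01. The summed signal was 1828 in the knockout and 2097 in the heterozygote. In that list 8 of the 11 were higher in the knockout, all of them below the filter, and the median was 0.23. Among these 8 were Ms4a1 at 0.35 and Pax5 at 0.27. Plasma cell markers summed to 2810 in the knockout and 3672 in the heterozygote. Of the 7, 2 were above the filter, Igha at -2.01 and Xbp1 at -0.29. The knockout signal of Igha, 7.13, was below the filter value. The list was divided, with 4 lower, 3 higher and a median of -0.01. Those higher were Sdc1 at 0.30, Mzb1 at 0.13 and Jchain at 0.02, all below the filter. Of 8 natural killer cell markers 1 was above the filter, Nkg7 at -0.41, and they summed to 720.3 in the knockout and 750.6 in the heterozygote. In that list 5 were lower and 3 higher, among the latter Klrk1 at 0.49 and Gzmb at 0.46, both below the filter. The CD8 marker Cd8b1 was at 10.24 in the knockout and 10.50 in the heterozygote, and Cd8a, below the filter, at 7.65 in the knockout and 7.63 in the heterozygote. Of 7 measured erythroid and platelet markers 2 were above the filter, Itgb3 at -0.61 and Itga2b at 0.23. Itgb3 was the only 1 of the 7 that was lower, and their median was 0.22.

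Promoters were read from the RefSeq table of build GRCm38.p6, as windows of 250 bases before to 50 after each gene's start. Of the 42 genes 39 had at least 1 window, 52 windows in all, and Asah1, Ctsb and Ctsh had none. The windows were searched on both strands for CACGTG, the core of the element bound by TFEB and its relatives, for GTCACGTG, which contains that core, and for the palindrome of 10 letters that joins GTCACGTG with its reverse complement. CACGTG was found in 15 of the 52 windows, or 28.8%, against 7.15% of all 32851 windows and 10.3% of the 10679 windows of genes above the filter. GTCACGTG was found in 10 windows, or 19.2%, against 2.25% of all windows and 4.34% of those of genes above the filter. That palindrome was in none of the 52 and in 0.326% of all windows. A match is a description of these letters and not a sign of binding.

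The sites of GTCACGTG before the start are shown because the motif was in a larger share of these windows than of all windows, although most of them lack it, with 16 bases on each side where the window allows, 5′ to 3′ on the strand of the gene and the match in capitals.
Arsa: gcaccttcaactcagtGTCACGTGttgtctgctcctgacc
Cers6: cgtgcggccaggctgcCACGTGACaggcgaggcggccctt
Ctsa: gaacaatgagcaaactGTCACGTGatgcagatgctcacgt
Ctsd: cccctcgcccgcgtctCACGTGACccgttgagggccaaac
Ctsd: tccccCACGTGACctgtatccagtcattc
Gla: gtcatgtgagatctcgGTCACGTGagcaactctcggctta
Glb1: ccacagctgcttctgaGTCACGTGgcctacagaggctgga
Lamp1: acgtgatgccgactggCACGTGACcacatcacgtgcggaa
Mcoln1: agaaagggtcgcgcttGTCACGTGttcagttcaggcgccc
Mcoln1: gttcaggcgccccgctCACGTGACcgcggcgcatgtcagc
Naglu: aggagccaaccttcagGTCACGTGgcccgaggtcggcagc
Smpd2: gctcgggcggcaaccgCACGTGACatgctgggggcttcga
The stretch of Ctsd nearer the start is chr7:142387902-142387941 on the minus strand, with its match beginning 98 bases before the start. That of Cers6 is chr2:68861403-68861442 on the plus strand, with its match 22 bases before the start. That of Mcoln1 with the match 45 bases before the start is chr8:3500458-3500497 on the plus strand.

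The 10 genes with GTCACGTG had a median difference of -0.09, and the 29 without it one of -0.16. Among the 10, the lowest was Cers6 at -0.55 and the highest Ctsa at 0.06, and none was at least 1.5-fold lower. That size was reached by 3.17% of all genes above the filter, so none among 10 genes says little. The 3 genes at least 1.5-fold lower that had a window, Ugcg, Sgms1 and Arsb, held neither GTCACGTG nor CACGTG in it, which says only that these letters are not in these windows. Their promoters are shown because these genes differed most, as the 250 bases before the start, and for Sgms1, which had 4 windows, before the start farthest upstream.
Ugcg: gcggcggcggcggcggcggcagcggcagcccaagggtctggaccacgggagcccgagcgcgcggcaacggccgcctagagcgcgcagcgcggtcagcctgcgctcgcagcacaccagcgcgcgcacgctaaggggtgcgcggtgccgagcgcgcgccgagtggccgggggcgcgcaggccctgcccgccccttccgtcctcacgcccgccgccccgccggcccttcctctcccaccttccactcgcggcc
Sgms1: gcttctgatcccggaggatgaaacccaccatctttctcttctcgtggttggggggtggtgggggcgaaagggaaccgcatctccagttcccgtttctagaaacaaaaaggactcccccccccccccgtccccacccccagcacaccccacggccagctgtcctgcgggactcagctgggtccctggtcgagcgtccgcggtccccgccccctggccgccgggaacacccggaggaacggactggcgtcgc
Arsb: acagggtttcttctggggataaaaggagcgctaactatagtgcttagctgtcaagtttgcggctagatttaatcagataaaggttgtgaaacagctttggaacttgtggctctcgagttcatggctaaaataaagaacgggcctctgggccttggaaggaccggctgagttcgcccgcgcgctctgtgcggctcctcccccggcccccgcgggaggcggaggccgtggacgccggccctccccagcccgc
The stretch of Ugcg is chr4:59189300-59189549 on the plus strand, with a GC content of 80.4%. That of Sgms1 is chr19:32388513-32388762 on the minus strand, at 67.2%. That of Arsb is chr13:93771429-93771678 on the plus strand, at 58.8%. The same stretch of genes above the filter had a median GC content of 60%, with quartiles of 53.2% and 66.8%, so that Ugcg lay above the upper quartile and Arsb near the median. For Sgms1 the placement depends on the start, since the same stretch before its other starts had 76%, 49.6% and 45.6%.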

How the data were processed

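Total RNA of sorted CD4 T cells was labelled and hybridised to Affymetrix arrays, 1 per genotype. The authors deposited log2 signals per gene, computed by RMA in Affymetrix Expression Console 1.1 on the core gene set, per the labels' design text, which names an exon array. The probe table used here belongs to a gene-level array, and which was hybridised was not settled. The sources used here name no genome build.

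Of 35556 rows, 21789 were clusters with 1 gene symbol. A gene's cluster of highest mean was taken. Values were compared as deposited, without a test, and "lower" or "higher" gives the sign of a difference unless a size is stated. The genes and lists were chosen with earlier results of these data known. Named by rule are Taf7, all 42 genes, and, of the other lists, genes at 1.5-fold above the filter and up to 3 at each end where there are none. Other genes named, such as Cert1, Lyz2, Csf1r, Itgam, Mitf and Cerk, were chosen after their values were seen. Genes with no cluster of their own were not analysed here. The alternatives were 3 scalings, 3 filters and 2 rules for clusters. Scripts were tested on simulated data. Software was pandas 2.3.3 and numpy 2.4.6 under Python 3.11.15, with matplotlib 3.10.9 and statsmodels 0.14.6.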

Additional observations from a re-analysis of the deposited data

How the results depend on the processing

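No array could be left out, and no error between samples can be estimated. No paired analysis was possible because the genotypes have a single array each. Over the 8 alternatives the number of the 42 genes at least 1.5-fold lower was 3 or 4 and the number higher was 0. Arsb dropped out with the loess trend removed and with quantile normalization, Asah1 under the 75th percentile filter, since its mean is below that level, and Arsb where genes with 1 cluster only were kept. The median of the 42 genes was between -0.13 and -0.06, and no single gene moved by more than the robust SD of genes of similar signal. Asah1, Ugcg and Sgms1 were past 1.5-fold in size under every scaling and cluster rule.

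The median of the sphingosine phosphate enzymes, -0.01, changed sign to 0.034 after centring, 0.029 with the trend removed and 0.067 with quantile normalization. That of the cathepsins was 0.012 after centring, and that of the glycosphingolipid genes was 0.013 with quantile normalization. The median of all genes above the filter was 0.0089 with quantile normalization, 0.033 with the filter at the 25th percentile and 0.059 with no filter. Of further lysosomal membrane genes 1 was at least 1.5-fold lower with each of the 3 scalings and with the filter at the 75th percentile. Of vacuolar ATPase subunits 0 were so with quantile normalization and with the filter at the 75th percentile. Of further lysosomal hydrolases 1 was so with that filter, which fewer genes reach. Of the regulators 1 was so with the filter at the 25th percentile and with no filter, which admit more genes. Over all genes 71 were at least 1.5-fold higher after centring and 91 with no filter. With the filter at the 75th percentile 105 were lower and 16 higher.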

Other observations

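Lists of autophagy genes and of cathepsin inhibitors were drawn up once the data were known, and no test was run on them. Autophagy delivers cytoplasm to lysosomes. Of 31 autophagy genes that passed the filter, 1 was lower by 1.5-fold or more in the knockout and none higher, or 3.23% against 3.17% of all genes, and their median difference was -0.03. Atg14, a subunit of the lipid kinase complex that starts autophagosomes, was at 7.73 in the knockout and 8.61 in the heterozygote, a difference of -0.87. Atg9a, a membrane protein of autophagosome precursors, was at -0.32 and Atg3 at -0.27. Sqstm1, a cargo receptor, was at 12.55 in the knockout and 12.39 in the heterozygote, and Map1lc3a at 8.25 in the knockout and 7.97 in the heterozygote.

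Inhibitors of cathepsins include cystatins and some serpins. Of the 6 that passed the filter 1 was lower by 1.5-fold or more, or 16.7% against 3.17% of all genes. It was Cst7, a cystatin of cytotoxic cells, at 8.49 in the knockout and 9.24 in the heterozygote. Serpinb6b was at -0.41, Serpinb9, an inhibitor of granzyme B, at -0.38, Cstb at -0.20 and Cst3 at -0.14. The last of the 6, Serpinb6a, was higher in the knockout, at 0.02.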
